A study of Homo sapiens with 32 samples.

Results

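The drug metabolism enzyme genes are 47 human genes, most of them for enzymes that alter and clear drugs and other foreign or lipid molecules, and include 2 nuclear receptors that regulate such enzymes. They were chosen by name out of 20037 protein-coding genes, by a rule without measured values but with earlier results of these data known. HNF4α is a nuclear receptor whose binding was mapped by ChIP-seq, which sequences the DNA that an antibody pulls down with a crosslinked protein, in 3 lines of pancreatic ductal adenocarcinoma. The data were 18 lists of peaks, 1 for each immunoprecipitated library, in 9 groups of 2. For each gene, the peaks whose summit lay within 50 kb of the gene's GRCh38 span were counted in each list. Because neighbouring genes share windows, the 47 genes occupied 36 separate loci. CYP3A4, CYP3A5 and CYP3A7 shared 1 locus, and UGT1A1 and UGT1A6 shared another.

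Panc10.05 and BxPC3 were mapped after doxycycline had induced either P1-α2, an isoform from the P1 promoter of HNF4A, or P2-α8, an isoform from its P2 promoter. Panc10.05 cells of genotype P1-α2 received 25 ng/mL doxycycline and those of genotype P2-α8 received 12.5 ng/mL, so isoform and dose cannot be told apart in that line. BxPC3 cells of either genotype received 500 ng/mL. The ASPC1 line carried CRISPR interference (CRISPRi), which represses a promoter through a guide RNA, with guide sgNC, sgP1 (titled sgP1E) or sgP2 (titled sgP2D), and its labels give no doxycycline. These 7 groups were precipitated with 1 pan-HNF4α antibody (PP-H1415). The ASPC1 sgNC and sgP2 cells were also precipitated with an antibody against P1 isoforms (PP-K9218). In the induced lines HNF4α came from an added, doxycycline-driven copy, no list of uninduced cells was analysed here, and each promoter was targeted by 1 titled guide.

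Drug metabolism proceeds in phases. Phase I enzymes, chiefly the cytochromes P450 (CYP), add or expose a reactive group, and phase II enzymes join that group to glucuronic acid (UGT), sulfate (SULT), glutathione (GST) or an acetyl group (NAT). HNF4α is known in liver as a regulator of many of these genes and of NR1I2 (PXR) and NR1I3 (CAR), the receptors that raise CYP2 and CYP3 enzymes when foreign molecules are present. Several of the enzymes are also known in intestine. The lists show where HNF4α lay on DNA and hold no expression values.

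The lists differed in length. The induced lines' lists held 12681 to 41808 peaks, the ASPC1 pan lists 11686 to 24295, the sgP2 P1-antibody lists 3916 and 5200, and the sgNC P1-antibody lists 697 and 260. Read depth is unknown. The lowest −log10 q lay just above 8 in the induced lines' lists and just above 2 in the ASPC1 lists. Each line has its own sequencing series in the library names, and the line cannot be told apart from that series. The strength of a peak is given as its percentile by the authors' fold enrichment within its own list, 100 being the strongest. A percentile describes a place in 1 list, and a difference between lists of unequal length is not a change in binding.

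The promoters below are shown as examples of the patterns found, bound in most lists or in some lines and not others. Each is the 250 bases before the start of transcription, 5′ to 3′ on the gene's own strand, from RefSeq (GRCh38.p14). Of the 47 genes, 36 had a promoter entry. Capitals mark the 5-base word CAAAG or its complement, the core of an HNF4 response element, a short word that 43.5% of all 22199 promoter windows of 300 bases contain. The first of them, at CYP4F3, was under a peak in 16 lists, and that of CES2 in 14.
CYP4F3 (chr19:15641062-15641311, plus strand): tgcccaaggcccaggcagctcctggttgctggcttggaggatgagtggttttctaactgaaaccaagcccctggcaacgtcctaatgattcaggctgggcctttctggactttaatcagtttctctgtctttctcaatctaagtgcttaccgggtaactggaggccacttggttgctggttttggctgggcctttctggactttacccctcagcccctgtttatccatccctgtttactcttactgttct
CES2 (chr16:66935266-66935515, plus strand): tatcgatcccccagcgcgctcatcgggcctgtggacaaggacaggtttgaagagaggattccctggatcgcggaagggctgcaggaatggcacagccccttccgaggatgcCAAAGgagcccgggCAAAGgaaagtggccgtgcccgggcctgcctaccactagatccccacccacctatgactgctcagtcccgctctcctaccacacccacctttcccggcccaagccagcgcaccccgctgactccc
The next pair belong to the regulators of the set. A peak covered the NR1I3 promoter in the induced lines and in no ASPC1 list, and the NR1I2 promoter in ASPC1 and BxPC3 and in no Panc10.05 list.
NR1I3 (chr1:161238204-161238453, minus strand): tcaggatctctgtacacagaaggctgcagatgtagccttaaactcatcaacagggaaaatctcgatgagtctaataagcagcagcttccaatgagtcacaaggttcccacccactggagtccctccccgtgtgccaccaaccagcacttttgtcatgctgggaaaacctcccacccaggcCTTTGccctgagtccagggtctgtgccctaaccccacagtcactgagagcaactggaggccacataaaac
NR1I2 (chr3:119781851-119782100, plus strand): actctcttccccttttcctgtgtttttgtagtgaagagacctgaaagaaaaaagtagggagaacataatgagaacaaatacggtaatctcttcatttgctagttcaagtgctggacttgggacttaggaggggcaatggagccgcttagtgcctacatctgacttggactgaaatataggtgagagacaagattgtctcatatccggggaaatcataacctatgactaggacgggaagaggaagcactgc
The last pair differed by line in another way. The CYP1A1 promoter was under a peak in the 4 Panc10.05 lists and no other, and the GSTM4 promoter in the 6 ASPC1 pan lists and 1 BxPC3 list.
CYP1A1 (chr15:74725529-74725778, minus strand): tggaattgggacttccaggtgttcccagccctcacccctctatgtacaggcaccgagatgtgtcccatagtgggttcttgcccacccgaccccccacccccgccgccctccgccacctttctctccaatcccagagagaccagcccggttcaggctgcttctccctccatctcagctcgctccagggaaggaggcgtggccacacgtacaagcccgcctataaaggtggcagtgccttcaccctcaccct
GSTM4 (chr1:109655849-109656098, plus strand): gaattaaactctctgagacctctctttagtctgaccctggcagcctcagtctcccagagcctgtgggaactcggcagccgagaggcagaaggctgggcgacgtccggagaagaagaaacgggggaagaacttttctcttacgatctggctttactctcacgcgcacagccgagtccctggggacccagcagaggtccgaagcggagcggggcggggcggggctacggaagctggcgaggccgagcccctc

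The full words CAAAGTCCA and CAAAGTTCA, longer forms of the same element, were searched on both strands of the 300-base windows (250 bases before the start to 50 after). A base run that matches one word cannot match the other. CAAAGTCCA was present in the windows of 3 of the 36 genes (8.33%), against 0.48% of all genes with a window, and CAAAGTTCA in 0 of the 36, against 0.328%. The stretches that hold the word are printed with the match in capitals. It began 53 bases before the start of CYP2C8, 56 before that of CYP2A6 and, read on the opposite strand, 231 before that of CYP2B6.
CYP2C8 (chr10:95069517-95069575, minus strand): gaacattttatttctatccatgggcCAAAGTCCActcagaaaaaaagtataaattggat
CYP2A6 (chr19:40850470-40850528, minus strand): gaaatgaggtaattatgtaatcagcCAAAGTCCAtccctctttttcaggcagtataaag
CYP2B6 (chr19:40991032-40991084, plus strand): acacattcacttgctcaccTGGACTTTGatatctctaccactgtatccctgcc
Few lists had a peak over these windows. The window of CYP2C8, which oxidizes paclitaxel, was under a peak in 2 lists, that of CYP2A6, the nicotine oxidase, in 1 list and that of CYP2B6 in 3. A match is a description of the letters and does not mark a bound site.

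Across the set, 45 of 47 genes had a peak in at least 1 list. UGT2A3, a glucuronosyltransferase, and CES1, the main carboxylesterase of liver, had none in any list, against 5.84% of all genes. The median gene had a peak in 11 lists (interquartile range 8 to 15), which was also the median over all 20037 protein-coding genes (6 to 15). Peaks in 12 or more lists were found at 23 genes (48.9%), against 48.5% of all genes. The set as a whole was therefore reached in about as many lists as other genes, whose median span of 24115 bp was close to the 21021 bp of these.

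**Figure D1:**
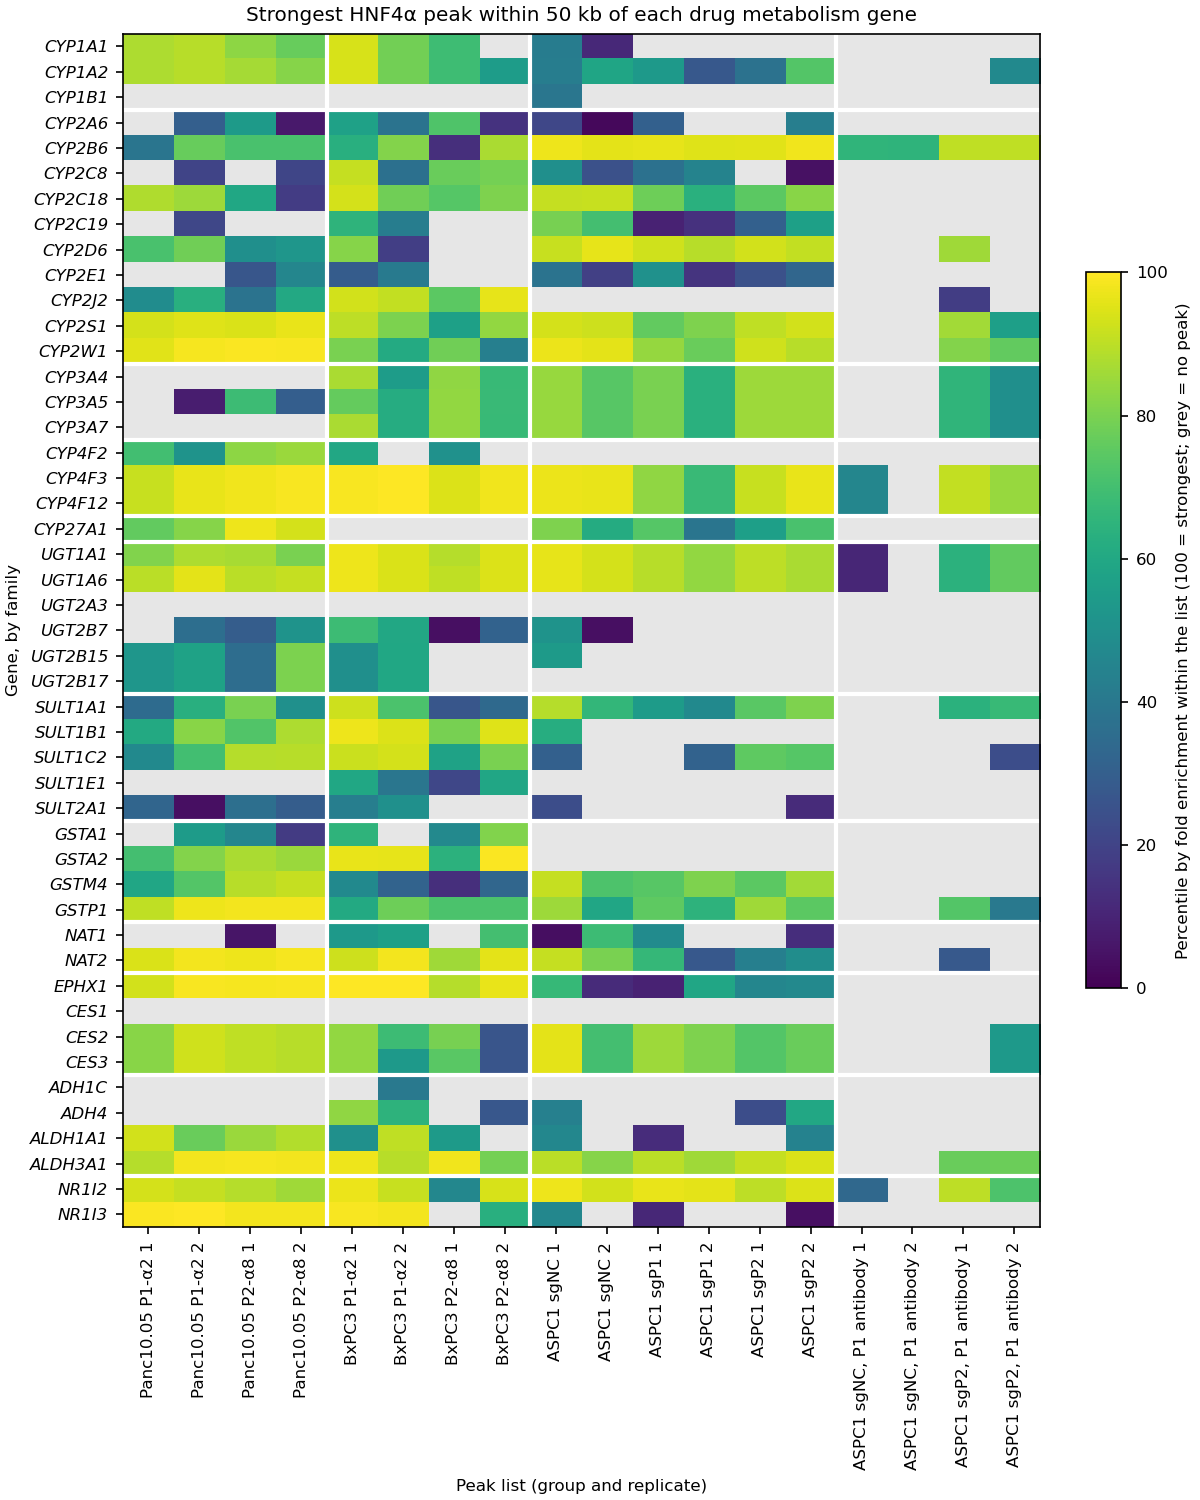
Percentile by fold enrichment of the strongest peak within 50 kb of each of the 47 genes (rows, ordered by family) in each of the 18 lists (columns); grey means no peak. CYP2B6 is coloured in all 18 columns, UGT2A3 and CES1 in none, and the CYP3A4 and CYP3A7 rows are grey in the 4 Panc10.05 columns.

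The share of the set with a peak in both lists of a group lay above that of all genes in 6 groups and below it in 3. In Panc10.05 the P1-α2 pair shared 31 of 47 genes (66.0%), against 74.5% of all genes, and the P2-α8 pair 36 (76.6%), against 79.5%. In BxPC3 the P1-α2 pair shared 40 (85.1%), against 76.6%, and the P2-α8 pair 30 (63.8%), against 45.4%. In ASPC1 with the pan antibody the sgNC pair shared 30 (63.8%, against 58.5%), the sgP1 pair 26 (55.3%, against 50.6%) and the sgP2 pair 27 (57.4%, against 52%). With the P1 antibody the sgNC pair shared 1 (2.13%, against 2.31%) and the sgP2 pair 14 (29.8%, against 23.7%). The widest gap was that of BxPC3 P2-α8. No test was made over the genes, which are not replicates and share loci.

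**Figure D2:**
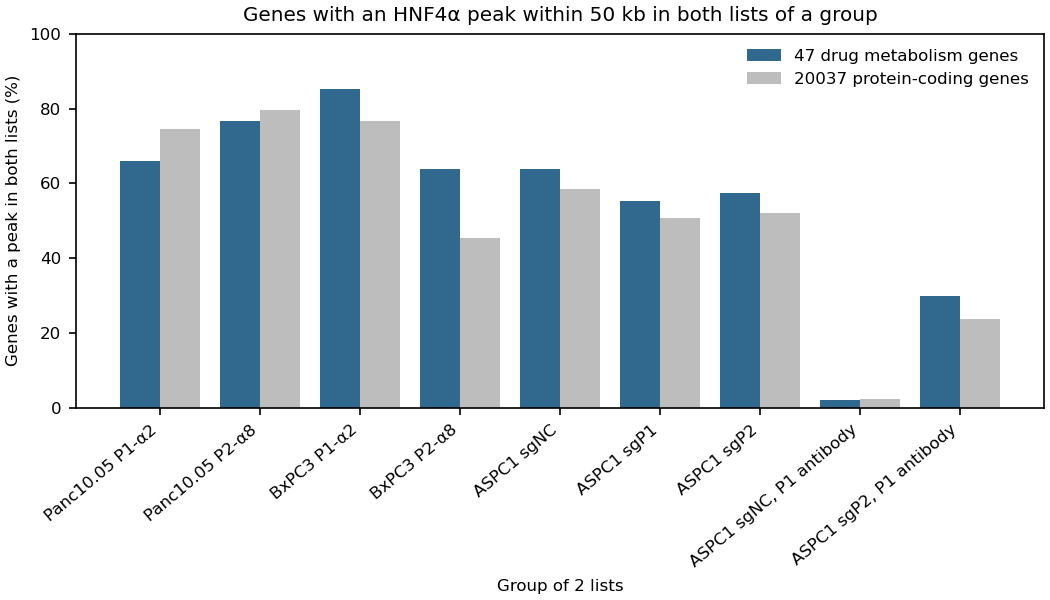
Percent of genes with a peak within 50 kb in both lists of each group, for the 47 drug metabolism genes (blue bars) and the 20037 protein-coding genes (grey bars). The blue bar reads 63.8% against 45.4% in BxPC3 P2-α8 and 66.0% against 74.5% in Panc10.05 P1-α2.

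The peaks around the set formed 263 separate regions when peaks that shared at least 1 bp were merged. Of these, 67 were found in 1 list and 196 in at least 2, and 12 were found in all 14 pan lists. A member's own span held 73 of the regions (27.8%). Regions found in more lists were also the stronger ones within their lists: the median of the mean percentile was 23.1 for regions of 1 list, 31.1 for 2 to 3 lists, 43.6 for 4 to 7, 54.8 for 8 to 11 and 70.4 for 12 to 18. A peak at percentile 95 or above in both lists of at least 1 group was present at 11 genes, namely CYP2B6, CYP2W1, CYP4F3, CYP4F12, GSTA2, GSTP1, NAT2, EPHX1, ALDH3A1, NR1I2 and NR1I3. These 11 of 47 are near the background, since 20.7% of all genes met the same rule.

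The receptors were bound at different places in different lines. NR1I3, the constitutive androstane receptor, had its strongest region over its promoter, at chr1:161237855-161238665, found in the 4 Panc10.05 lists and 3 of 4 BxPC3 lists. Its percentile there was 99.5 and 99.6 in Panc10.05 P1-α2, 98.3 and 98.4 in Panc10.05 P2-α8, and 98.9 and 98.2 in BxPC3 P1-α2. In BxPC3 P2-α8 the first list had no peak within 50 kb of NR1I3 and the second had 1, at percentile 63.2. The promoter peak was thus among the strongest 2 in 100 in 6 lists and absent from all 6 ASPC1 pan lists, where NR1I3 had peaks elsewhere in its window in 3 lists, at percentiles 46.2, 11.1 and 3.94.

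NR1I2, the pregnane X receptor, was bound in 17 of 18 lists at a region inside the gene, chr3:119794757-119796318, 12.5 kb downstream of its start. The percentile of this region was 93.6, 91.2, 88.9 and 85.7 in the Panc10.05 lists (P1-α2 first) and 93.0, 45.6, 35.2 and 82.7 in the BxPC3 lists. In the ASPC1 pan lists it was 97.4 and 93.2 with sgNC, 96.7 and 95.8 with sgP1, and 90.1 and 94.8 with sgP2. The region was high in every Panc10.05 and ASPC1 pan list and spread widely in BxPC3. With the P1 antibody it was at 33.7 in the first sgNC list, absent from the second, and at 89.9 and 72.0 in the sgP2 lists.

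The promoter of NR1I2 showed another pattern. The region over it, chr3:119781276-119782718, had percentiles of 89.1, 85.5, 58.8, 86.4, 81.1 and 88.7 in the ASPC1 pan lists (sgNC, sgP1 and sgP2 in turn). In BxPC3 it was at 22.3 in the first P1-α2 list and at 23.9 and 2.57 in the P2-α8 lists, and it was absent from the 4 Panc10.05 lists. The induced lines instead shared a region 26.9 kb upstream, inside CFAP91, chr3:119754789-119755617, which was in all 8 of their lists at percentiles of 29.4 to 96.9 and in no ASPC1 list.

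**Figure D3:**
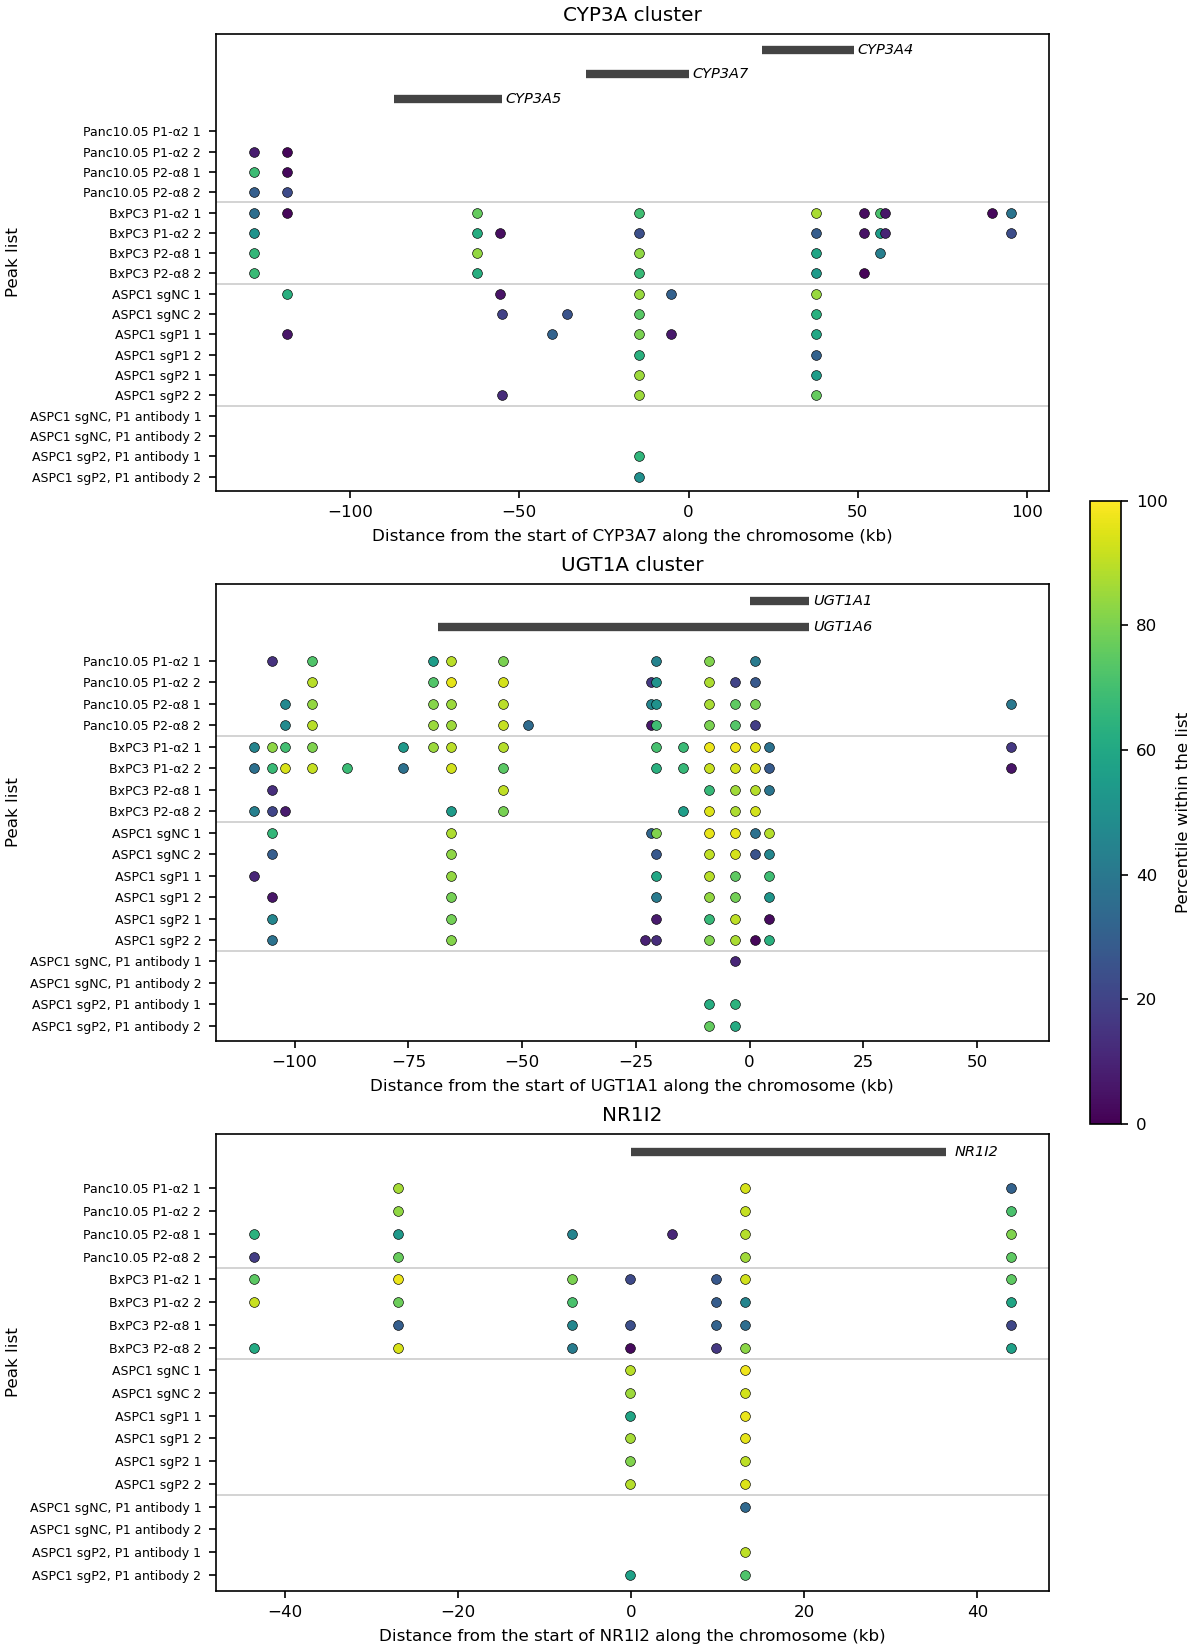
Regions within 50 kb of the CYP3A genes, of UGT1A1 and UGT1A6, and of NR1I2 (panels), by distance along the chromosome from the start of CYP3A7, UGT1A1 or NR1I2 (kb, horizontal axis) in each list (vertical axis); each point is a region with a peak in that list, coloured by its percentile, and bars show the genes. The point inside CYP3A7 is in the BxPC3 and ASPC1 pan rows and in no Panc10.05 row, and the column of points inside NR1I2 runs through 17 rows.

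Of the CYP3A enzymes of the set, CYP3A4 is the main drug oxidase of liver and gut, CYP3A5 its polymorphic relative and CYP3A7 the fetal form. These 3 genes had peaks in BxPC3 and ASPC1 and hardly any in Panc10.05. A region inside CYP3A7, chr7:99719969-99720872, 14.7 kb downstream of its start, lies within 50 kb of all 3 genes. Its percentile was 69.2, 23.9, 83.5 and 67.6 in the BxPC3 lists and 84.6, 74.1, 79.8, 63.6, 85.4 and 85.5 in the ASPC1 pan lists. No Panc10.05 list had it. Both sgP2 lists of the P1 antibody had it too, at 65.3 and 49.8. A region inside CYP3A4, chr7:99772485-99773041, 11.4 kb downstream of its start, was found in the same 10 pan lists, at percentiles of 29.1 to 87.1. CYP3A5 had a region of its own, chr7:99672533-99673015, in the 4 BxPC3 lists and no other, with a mean percentile of 71.2. In Panc10.05, CYP3A5 alone of the 3 had any peak, in 3 of 4 lists, at best percentiles of 8.15, 68.7 and 29.9. CYP3A43, a CYP3A gene outside the set, had a peak within 50 kb in all 4 Panc10.05 lists.

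CYP3A4 and CYP3A7, which share their main region, and SULT1E1, the estrogen sulfotransferase, had peaks in all 4 BxPC3 lists and in no Panc10.05 list, 3 genes in all against 0.609% of all genes. With lists cut to equal length this count was 0, against 1.83% of all genes. In the other direction the only gene in all 4 Panc10.05 lists and no BxPC3 list was CYP27A1, against 2.48% of all genes. At equal length CYP27A1, the mitochondrial sterol 27-hydroxylase, was again the only gene, against 3.53%. Counting any base of a peak in the window, in place of its summit, left 0 genes, and a 10 kb window gave 2. Its best percentile was 76.2 and 81.9 in Panc10.05 P1-α2 and 97.4 and 93.7 in P2-α8. These 4 values came from chr2:218816260-218817008, 1.34 kb beyond the gene, which no other list held. In ASPC1 the gene was bound at a different place, chr2:218813873-218814579 inside the gene, in all 6 pan lists at percentiles of 39.1 to 80.6. That second region was also in both Panc10.05 P2-α8 lists, at 53.4 and 42.5.

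Peak number was tested between the lines with each list cut to its 12681 strongest peaks by fold enrichment. Dose and sequencing series differ with line in this test. CYP2W1, a P450 of fetal gut and of tumours, had 3, 3, 3 and 4 peaks in the Panc10.05 lists and 1, 0, 1 and 1 in the BxPC3 lists. CYP27A1 had 1, 2, 1 and 2 against 0 in each BxPC3 list. The groups did not overlap at either gene. The two-sided exact permutation test gave p = 0.0286 for each, the smallest p that 70 splits of 8 lists allow. After Benjamini-Hochberg adjustment over 16076 genes, the p from this exact permutation test was 0.207, and 0 genes passed 0.05. At the unadjusted threshold of 0.05, 2 of the 40 drug metabolism genes tested were higher in Panc10.05, against 9.42% of all genes tested, and 0 were higher in BxPC3, against 4.35%. Without the first BxPC3 P2-α8 list, which sets the common length, the counts were 5 and 6, and with lists as deposited they were 4 and 4. The median difference between lines (Panc10.05 minus BxPC3) was −0.375 peaks over the 40 genes and 0.25 over all genes tested.

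Among the CYP2 enzymes, CYP2B6, which oxidizes bupropion and is a classical CAR target, was the 1 gene with a peak in all 18 lists, and a single region was in all of them, 10.9 kb upstream of the gene, chr19:40979833-40980894. Its percentile was 97.6 and 95.9 in ASPC1 sgNC, 96.5 and 94.98 in sgP1 and 95.7 and 97.8 in sgP2. With the P1 antibody it was 65.6 and 65.0 in sgNC and 90.4 and 90.3 in sgP2. It ranked lower in the induced lines, at 38.7, 76.9, 71.2 and 71.2 in Panc10.05 and 63.1, 77.3, 7.83 and 75.8 in BxPC3. CYP2B6 was the only gene of the set with a peak in both sgNC lists of the P1 antibody.

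CYP2W1 and CYP2S1, P450 enzymes of tissues outside the liver, and CYP2C18 were found in all 14 pan lists. For CYP2W1 the region in most lists lay 37.3 kb away inside ADAP1, chr7:945399-946730, with percentiles of 95.6, 98.8, 99.5 and 96.6 in Panc10.05, 79.9, 61.1, 78.1 and 43.0 in BxPC3, and 54.3 to 96.9 in the ASPC1 pan lists. It also lay in both sgP2 lists of the P1 antibody. A nearer region of CYP2W1, 5.47 kb upstream, chr7:976870-978099, was in all 6 ASPC1 pan lists and both sgP2 lists of the P1 antibody and in no list of the induced lines. CYP2S1 had up to 10 peaks in a list, and its region in most lists, chr19:41166636-41167850, lay 25.9 kb upstream and in 16 lists. The region of CYP2C18 lay 5.82 kb from the gene, chr10:94677560-94678360, in all 14 pan lists and no list of the P1 antibody.

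CYP2D6, the debrisoquine hydroxylase, was in 13 lists through a region 35.5 kb away, chr22:42090536-42091418, at 89.3 to 96.2 in the ASPC1 pan lists, 3.54 to 78.1 in Panc10.05 and 82.0 and 18.6 in BxPC3 P1-α2. CYP2J2, the arachidonic acid epoxygenase, had peaks in all 8 lists of the induced lines, with best percentiles of 38.2 to 96.3, and in no ASPC1 pan list. One P1-antibody list of sgP2 held a CYP2J2 peak, at 18.1, which was the single P1-antibody region of the set without an ASPC1 pan peak. CYP2C8 and CYP2C19, the S-mephenytoin hydroxylase, ranked below percentile 50 in most lists that had them. At CYP2C8 the exceptions were 3 BxPC3 lists (91.1, 77.3 and 79.1). CYP2E1, the ethanol-inducible P450, had no percentile above 50.6.

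Of the CYP4F enzymes, which hydroxylate fatty acids and leukotrienes, CYP4F3 and CYP4F12 share a locus. Their best percentile, 99.8, was the highest among the P450 genes of the set. CYP4F2 lies at a separate locus, with a best percentile of 84.8. The region over the start of CYP4F3, chr19:15640443-15641697, was in 16 lists at a mean percentile of 87.3. Its percentile was 83.6, 91.5, 78.4 and 90.9 in Panc10.05 and 94.9, 94.7, 94.6 and 96.3 in BxPC3. In ASPC1 it was 95.04 and 96.8 with sgNC, 64.7 and 51.3 with sgP1, and 91.7 and 96.6 with sgP2, so that the sgP1 lists held it lowest of the pan lists. These 3 ASPC1 groups differ in list length, and the difference was not tested. Inside CYP4F12, chr19:15680616-15681999 was in all 8 lists of the induced lines, at 91.4, 96.9, 97.9 and 98.9 in Panc10.05 and 99.2, 99.8, 55.8 and 97.7 in BxPC3, and in no ASPC1 list. The promoter of CYP4F2, the vitamin K hydroxylase, was under a peak in the 4 Panc10.05 lists only, at 69.5, 51.3, 82.8 and 84.8.

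Among the CYP1 enzymes, which oxidize polycyclic aromatic compounds and caffeine, CYP1A1 and CYP1A2 share a locus. The region in most lists of CYP1A1 lay 5.57 kb upstream, chr15:74730748-74731501, in the 4 Panc10.05 and 3 BxPC3 lists at a mean percentile of 82.7. CYP1A2 was in 15 lists, with its most frequent region 43.8 kb away inside CSK, chr15:74800147-74800787. That region was in all Panc10.05 and all ASPC1 pan lists and in no BxPC3 list. CYP1B1 had a peak in 1 list, the first sgNC list with the pan antibody.

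The conjugating UGT1A genes were bound at several places of their shared locus. UGT1A1 is the bilirubin glucuronosyltransferase and UGT1A6 acts on small phenols. The 2 most frequent regions, chr2:233749988-233751896 and chr2:233756600-233757351, lie upstream of UGT1A1 and inside UGT1A6, and each was in 16 lists. The first had percentiles of 81.1, 87.7, 86.8 and 80.0 in Panc10.05, 97.2, 91.7, 66.8 and 94.6 in BxPC3 and 67.2 to 96.1 in the ASPC1 pan lists. Another region, chr2:233705675-233706565, was in all 8 lists of the induced lines, at 74.3 to 93.7, and in no ASPC1 list. UGT1A6 held 19 regions, the most of the set, on a span of 81599 bp, against a median of 21021 bp. UGT2B7, a morphine glucuronosyltransferase, had 0 to 2 peaks in every list but the first of BxPC3 P1-α2, which had 5, and UGT2B15 and UGT2B17 shared a region, chr4:68597153-68598127, in the 4 Panc10.05 lists and the BxPC3 P1-α2 pair.

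Of the sulfotransferases, SULT1A1, the main phenol form, had a region in 16 lists, chr16:28599319-28600588, 5.26 kb from the gene, at percentiles of 4.20 to 87.3. SULT1B1, which acts on thyroid hormone, and SULT1C2 were in all 8 lists of the induced lines and in fewer of the ASPC1 lists. SULT1B1 had its region inside the gene, chr4:69755002-69755738, at 60.7, 82.0, 72.7 and 87.7 in Panc10.05, 97.5, 94.6, 79.7 and 95.1 in BxPC3, and 62.1 in 1 ASPC1 list. SULT1C2 had chr2:108270278-108272221, 17.9 kb upstream, in all 8 lists of the induced lines at 36.6 to 92.0 and in 4 ASPC1 pan lists. SULT2A1, the bile acid and steroid form, was weak throughout, with no percentile above 50.4, and SULT1E1 appeared in the 4 BxPC3 lists only, at 59.4, 39.2, 21.3 and 59.2.

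Of the glutathione transferases, GSTP1 and GSTM4 had peaks in all 14 pan lists, and GSTA1 and GSTA2 had none in ASPC1. GSTA2, an alpha class enzyme of liver and gut, had a region 24.2 kb away, chr6:52725495-52726225, in all 8 lists of the induced lines. Its percentile was 57.4, 74.3, 57.1 and 85.0 in Panc10.05 and 96.8, 96.4, 64.3 and 99.3 in BxPC3, and it had no ASPC1 peak. GSTA1 had peaks in 3 lists of each induced line and in no ASPC1 list. GSTP1, the pi class enzyme common in tumours, had a merged region of 4922 bp 44.2 kb away, chr11:67629282-67634203, in 16 lists. The median merged region was 518 bp wide, and merging overlapping peaks can join separate summits. The strongest peak in it was at 90.5, 97.3, 98.2 and 98.3 in Panc10.05 and 60.6, 77.8, 71.5 and 71.8 in BxPC3. The promoter peak of GSTM4 lay at 51.5 to 91.2 in the ASPC1 pan lists, and its region in most lists, chr1:109620369-109621152, lay 35.3 kb away inside AMPD2.

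NAT2, the polymorphic acetyltransferase that inactivates isoniazid, was in all 14 pan lists, while its relative NAT1 was in 8 lists of the 18. For NAT2 the region in most lists, chr8:18380368-18381265, lay 5.43 kb from the gene, in 15 lists. A region inside NAT2, chr8:18392060-18392743, reached percentiles of 94.3, 98.2, 97.3 and 98.6 in Panc10.05 and 92.3, 98.1, 85.6 and 96.1 in BxPC3, and was in 3 ASPC1 pan lists at 41.8, 46.9 and 48.0.

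Among the hydrolases, EPHX1, the microsomal epoxide hydrolase, had in its window the region chr1:225886001-225886736, which lies 40.8 kb away inside LEFTY1. Its percentile was 93.0, 99.0, 96.9 and 94.4 in Panc10.05 and 99.9, 99.9, 88.8 and 96.6 in BxPC3, and no ASPC1 list held it. The carboxylesterases CES2, which activates irinotecan, and CES3 share a region over the start of CES2, chr16:66935113-66936069, in 14 lists at a mean percentile of 68.9. A further region inside CES2, chr16:66939226-66939968, was in the 4 Panc10.05 lists and no other, at a mean percentile of 85.0. ALDH3A1, which oxidizes aromatic aldehydes, had 2 regions of 16 lists each, of which chr17:19720227-19721449, 17.0 kb away, had the higher mean percentile, 86.4. ALDH1A1, the retinal dehydrogenase, was bound at a distance of 42.2 kb, chr9:72858033-72858836, in 9 lists. ADH4 was in 6 pan lists outside Panc10.05 and ADH1C in 1 BxPC3 list.

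At the promoter windows themselves, 19 of 36 genes (52.8%) were overlapped by a peak in at least 1 of the 18 lists, against 31% of all genes with a window. In every Panc10.05 list 6 were overlapped, CYP1A1, CYP2S1, CYP4F2, CYP4F3, CES2 and NR1I3, against 7.21% of all genes. CYP4F3 alone was overlapped in every BxPC3 list, against 1.22%. In every ASPC1 pan list 6 were overlapped, CYP2C19, CYP2S1, CYP4F3, GSTM4, CES2 and NR1I2, against 4.25%. CYP2S1, CYP4F3 and CES2 were thus in both sets of 6. The others were in a single set, but the lists stop at unlike levels. The lowest −log10 q lay just above 8 in Panc10.05 and just above 2 in ASPC1, so weaker peaks can appear only in ASPC1. The peak at the CYP2C19 promoter was low in each ASPC1 list, at percentiles of 5.61 to 36.2.

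**Figure D4:**
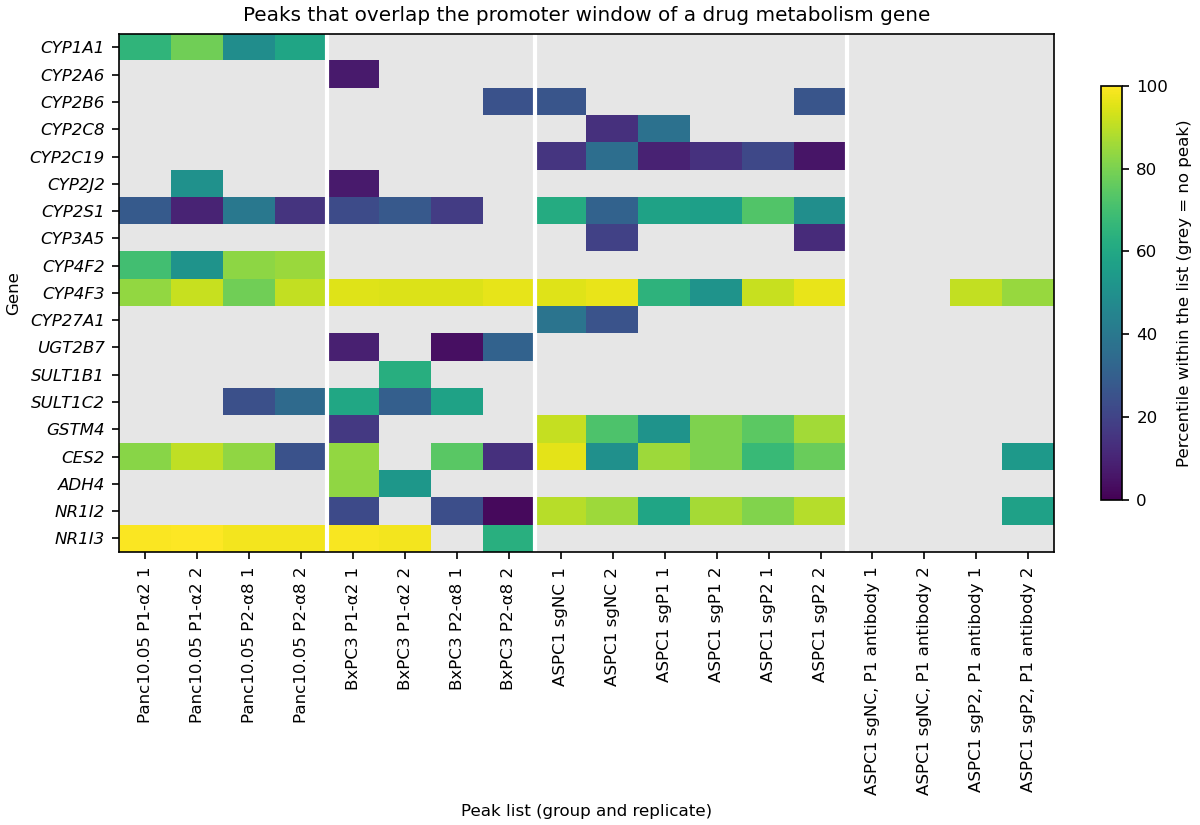
Percentile by fold enrichment of the peak that overlaps the promoter window (250 bases before to 50 after the start) of each of the 19 genes with such a peak (rows) in each of the 18 lists (columns); grey means no overlapping peak. NR1I3 is near 100 in 6 induced lists and grey in ASPC1, GSTM4 and NR1I2 are coloured in all 6 ASPC1 pan columns, and CYP1A1 and CYP4F2 are coloured in the Panc10.05 columns only.

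The isoforms were compared within each line by genes with a peak in both lists of one isoform and neither of the other. In Panc10.05, 0 genes were called for P1-α2 only, against 0.928% of all genes, and CYP2E1 alone for P2-α8 only, against 2.59%. CYP2E1 had 1 peak in each P2-α8 list, at percentiles of 26.9 and 45.9. With the 4 lists cut to 24828 peaks CYP2E1 was no longer called and CYP3A5 was, against 2.23% of all genes. Without the second P1-α2 list the count for P2-α8 only was 5. In BxPC3, 6 genes were called for P1-α2 only, against 16.5% of all genes. They were CYP2C19, CYP2D6, CYP2E1, UGT2B15, UGT2B17 and SULT2A1, and none was called for P2-α8 only, against 0.00998%. The BxPC3 P1-α2 lists held 41808 and 33737 peaks and the P2-α8 lists 12681 and 14666. With the 4 lists cut to 12681 peaks, 0 genes were called for P1-α2, against 3.11% of all genes, and 5 for P2-α8, against 2.10%. The 5 were CYP2A6, UGT2B7, SULT1E1, GSTA1 and GSTM4, so the calls lay in opposite directions before and after the lengths were made equal.

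At equal lengths (24828 peaks in Panc10.05 and 12681 in BxPC3), the peak numbers of the isoforms overlapped at 39 of the 47 genes in Panc10.05 and 33 in BxPC3. They did not overlap at 8 genes in Panc10.05, against 23% of all genes, and at 14 in BxPC3, against 12.6%. Of the 8, 6 had more peaks in both P2-α8 lists, against 12.9% of all genes. The other 2 had more in both P1-α2 lists, against the rest of the 23%. Of the 14, 12 had more with P2-α8, against 6.35%, and 2 with P1-α2, against the rest of the 12.6%. The Panc10.05 genes were CYP2J2 and NR1I3 for P1-α2, and CYP3A5, CYP27A1, UGT1A1, UGT1A6, SULT1C2 and GSTA2 for P2-α8. The BxPC3 genes were UGT1A6 and NR1I3 for P1-α2, and CYP2A6, CYP3A5, CYP3A7, UGT2B7, SULT1C2, SULT1E1, GSTA1, GSTM4, GSTP1, CES2, CES3 and NR1I2 for P2-α8. NR1I3 had more peaks with P1-α2 in both lines, 3 and 4 against 2 and 2 in Panc10.05 and 2 and 3 against 0 and 1 in BxPC3. At these equal lengths CYP3A5 and SULT1C2 had more with P2-α8 in both lines. CYP3A5 had 0 and 0 against 1 and 1 in Panc10.05 and 1 and 0 against 3 and 3 in BxPC3. SULT1C2 had 1 and 1 against 2 and 4 in Panc10.05 and 2 and 2 against 4 and 3 in BxPC3. In the BxPC3 lists as deposited, longer for P1-α2, none of the 12 genes had more peaks in both P2-α8 lists. CYP2A6, CYP3A5, UGT2B7, SULT1C2, CES2 and CES3 lay the other way, and the rest of the 12 overlapped. CYP3A5 had 4 and 4 with P1-α2 against 3 and 3, and SULT1C2 had 6 and 6 against 4 and 3. NR1I3 kept its direction there, with 5 and 5 against 0 and 1. In Panc10.05 as deposited SULT1C2 kept its direction, with 1 and 1 against 4 and 4. CYP3A5 (0 and 2 against 2 and 2) and NR1I3 (3 and 4 against 4 and 2) overlapped. These differences were not tested, and in Panc10.05 the isoforms also differ in dose. The share of all genes alike in both lines was not computed.

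The guides gave few calls in ASPC1, and both guide comparisons share the sgNC lists. No gene was called for sgP1 and not sgNC, against 0.17% of all genes, or for sgP2 and not sgNC, against 0.13%. CYP1A1 and UGT2B7 were called for sgNC and not sgP1, against 3.59%, and the same 2 genes for sgNC and not sgP2, against 2.8%. Their sgNC peaks were weak in the second list, with CYP1A1 at 42.1 and 11.5 and UGT2B7 at 51.2 and 4.15. At equal lengths of 11686 peaks the calls lay in the opposite direction. Neither gene was then called for sgNC, against 1.39% of all genes beside sgP1 and 1.15% beside sgP2. CYP2E1 was called for sgP1 and not sgNC, against 1.24%, and CYP2E1, SULT1C2 and ADH4 for sgP2 and not sgNC, against 1.26%. Between the guides, 0 genes were called for sgP1 and not sgP2, against 0.943%, and 1 for sgP2 and not sgP1, against 1.68%. It was ADH4, a class II alcohol dehydrogenase, which was at 23.7 and 59.8 in the sgP2 lists, absent from both sgP1 lists and at 43.4 in 1 sgNC list. At equal lengths ADH4 was again called for sgP2, against 1.22% of all genes, and CYP2C8 was called for sgP1, against 1.27%.

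With the P1 antibody, 8 genes had a peak in both sgP2 lists and in neither sgNC list, against 17.1% of all genes. They were CYP2S1, CYP2W1, the 3 CYP3A genes, SULT1A1, GSTP1 and ALDH3A1. None was called in the other direction, against 0% of all genes. The sgNC lists held 697 and 260 peaks. With all 4 lists cut to 260 peaks none of the 8 was called, against 0.309% of all genes. CYP2B6 was then called for sgNC, against 0.13%. Within the sgP2 cells, 0 genes had the P1 antibody's peak and not the pan antibody's, against 0.02% of all genes. In the other direction 7 were called, CYP2C18, CYP2C19, CYP2E1, CYP27A1, GSTM4, EPHX1 and ADH4, against 17.6%. Of the 25 regions of the set with any P1-antibody peak, 24 also had an ASPC1 pan peak and 17 were in both sgP2 lists.

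The regions, promoters and list numbers above were read in the lists as deposited, where ASPC1 peaks reach down to a −log10 q just above 2. Genes were called between ASPC1 and the induced lines only among peaks whose −log10 q reached 8, because the induced lines' lists stop there. No gene was in all 6 ASPC1 pan lists and none of the 8 induced lists, against 0.0948% of all genes. CYP2J2 and GSTA2 were in all 8 induced lists and no ASPC1 pan list, against 5.51%. At this level 16 genes were in every pan list, against 26.2% of all genes. They were CYP2B6, CYP2C18, CYP2S1, CYP2W1, CYP4F3, CYP4F12, UGT1A1, UGT1A6, SULT1A1, GSTM4, GSTP1, NAT2, CES2, CES3, ALDH3A1 and NR1I2. The 16 of 47 lie somewhat above that background, but the gap was not tested. Of the 16, 6 are pairs at 3 shared loci (CYP4F3 with CYP4F12, UGT1A1 with UGT1A6 and CES2 with CES3).

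Other genes of the pathway were read from fixed lists. Of all protein-coding genes, 29.6% had a peak in all 14 pan lists and the median gene was in 11 lists; of the 47 genes, 18 were in all pan lists. Of 60 further phase I genes, 20 were in all 14 pan lists and the median gene was in 10 lists. ALDH3B1, an aldehyde dehydrogenase, was in all 18, and EPHX2, the soluble epoxide hydrolase, and CYP4F8 in 17. Of 41 further phase II genes, 24 were in all pan lists, with a median of 15 lists. SULT2B1, the cholesterol sulfotransferase, was in all 18, and UGT2A1 and UGT2B4 were in none. Those figures hold UGT1A genes that share the windows of UGT1A1 and UGT1A6. Of 19 transporters, 13 were in all pan lists, with a median of 16 lists, among them ABCG2, a drug efflux pump, and SLC15A1, the peptide carrier, in 17 lists each. Of 19 regulators, 9 were in all pan lists, with a median of 14 lists. PPARA, the fatty acid receptor, was in all 18, and NFE2L2, the oxidative stress factor, was in 17.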

How the data were processed

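HNF4α ChIP-seq peak lists of 18 immunoprecipitated libraries in 9 groups of 2 were used; 14 input libraries were not used here. Groups follow the labels for line, genotype and antibody. The BxPC3 libraries used as P2-α8 carry that genotype label, while their titles name P1 with a8. Nothing in the labels says that replicates were separate cultures, so the p-values measure only the spread between these libraries. The submitters' processing notes name Bowtie2 2.2.9, MACS2 2.2.7 and the builds hg38 and mm10, without roles. In the deposited lists each row is a peak with a score, a fold enrichment (a linear ratio), −log10 p-value and −log10 q-value. These are the authors' values, 1 list per library, and read depth, and so the precision of a peak, is unknown. The build was checked against RefSeq GRCh38.p14: summits lay within 1 kb of a gene start more often (3.93% to 16.3%) than after a 100 kb shift (1.15% to 2.89%), in 18 of 18 lists.

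Summits within 50 kb of a gene's span were counted with Python 3.11.15, numpy 2.4.6 and pandas 2.3.3. Regions merged peaks of different lists that shared at least 1 bp. Shares and counts over the genes were described beside all protein-coding genes and not tested. Peak number between Panc10.05 and BxPC3 was tested per gene by a two-sided exact permutation test with Benjamini-Hochberg adjustment over all genes tested. Counting was checked with bedtools 2.31.1, where 0 of 18 lists differed, and the permutation test with simulated peak numbers. Genes named with values were those in at least 12 lists, called in any comparison, at percentile 95 or above in both lists of a group, or in no list, and the receptors; each was given the region found in most lists. Other genes and regions, such as those limited to 1 line, were named after their values were seen. The genes and lists were chosen with earlier results of these data known, and 1 item is not reported here. The ASPC1 comparison at a −log10 q of at least 8 and the word CAAAG were added after seeing the data. Alternatives were a 10 kb window, any base of a peak in the window, a −log10 q of at least 8, equal list lengths, lists as deposited, summits within 100 bp, a replicate block and leaving out each library.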

Additional observations from a re-analysis of the deposited data

Results flagged for a closer look

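UGT1A6 was the 1 gene of the 47 at which the isoforms moved in opposite directions in the induced lines when lists were cut to equal length within a line. In Panc10.05 it had 9 and 8 peaks with P1-α2 and 11 and 10 with P2-α8, a difference (P1-α2 minus P2-α8) of −2. In BxPC3 it had 10 and 11 with P1-α2 and 6 and 8 with P2-α8, a difference of 3.5. The difference between the lines was not tested. Within a line, the peak numbers of the isoforms did not overlap at 23% of all genes in Panc10.05 and 12.6% in BxPC3. The share of all genes with opposite directions was not computed. Dose differs with isoform in Panc10.05, and its part in the result was not tested.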

How the results depend on the processing

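With lists of equal length, genes with a peak in both lists became 0 for the P1 antibody in sgP2 and to 20 for BxPC3 P1-α2; genes called became 0 for BxPC3 P1-α2 only, 5 for P2-α8 only, 1 for sgP1 only and 0 for sgNC against it, 3 for sgP2 only and 0 for sgNC against it, 1 for sgP1 against sgP2, 0 for sgP2 with the P1 antibody and 1 for sgNC, and 0 for BxPC3 against Panc10.05. With a 10 kb window, genes in both lists became 0 (sgNC) and 8 (sgP2) with the P1 antibody, 20 (Panc10.05 P1-α2) and 23 (Panc10.05 P2-α8). Calls then became 2 for Panc10.05 P2-α8 only, 2 for BxPC3 P1-α2 only, 1 for sgNC against sgP2, 4 for sgP2 with the P1 antibody, 2 for Panc10.05 against BxPC3 and, at a −log10 q of at least 8, 1 for the induced lines only and 9 in every pan list; 1 gene had more peaks in BxPC3 at p of at most 0.05. At a −log10 q of at least 8, calls were 1 for sgNC against either guide, 2 for sgP2 against sgP1 and 13 for sgP2 with the P1 antibody. Counting any base of a peak left 0 genes for Panc10.05 against BxPC3. With lists as deposited, 4 genes had more peaks in Panc10.05 and 4 in BxPC3 at p of at most 0.05 by the exact permutation test. Regions numbered 263, 314 with summits within 100 bp and 242 at a −log10 q of at least 8.

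With the replicate number as a block, 16 swaps allow no exact permutation p under 0.125, so 0 genes passed in the peak number test between lines; the other 15 counts stay the same by construction. Same-numbered libraries correlated at −0.00668 to 0.116, so the numbers pair nothing that these lists show. The antibody comparison at equal length was not run, since lengths were set within each antibody.

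Leaving out 1 library left 1 list in its group, so the count of genes in both lists became the count in that single list. Such counts, the calls and the count in every pan list can then only stay or rise, and do not show stability. The single-list counts with the P1 antibody were 1 to 6 for sgNC (6 without the second list) and 17 to 18 for sgP2. With the pan antibody they were 27 to 30 for sgP1, 30 to 38 for sgNC and 27 to 33 for sgP2. In the induced lines they were 41 to 42 for BxPC3 P1-α2, 33 for BxPC3 P2-α8, 31 to 37 for Panc10.05 P1-α2 and 37 for P2-α8. Called genes ranged from 8 to 13 for sgP2 with the P1 antibody (13 without the first sgNC list), 2 to 7 for sgNC against sgP1 (7 without the second sgNC list), 2 to 5 for sgNC against sgP2 (5 without the second list of either group), 0 to 2 for sgP2 against sgNC (2 without the first sgNC list), 1 to 2 for sgP2 against sgP1 (2 without the second sgP1 or the first sgP2 list), 0 to 1 for sgP1 against sgP2 (1 without the second sgP2 list), 7 to 13 for the pan over the P1 antibody (13 without the first pan list) and 0 to 1 in reverse (1 without the second P1-antibody list). They ranged from 6 to 9 for BxPC3 P1-α2 only, 0 to 1 for P2-α8 only (1 without the first P1-α2 list), 1 to 5 for Panc10.05 P2-α8 only (5 without the second P1-α2 list) and 0 to 1 for P1-α2 only (1 without the first P1-α2 list). Between lines the range was 3 to 4 for BxPC3 and 1 for Panc10.05, 2 to 3 for the induced lines only (3 without the first sgNC list) and 16 to 17 for every pan list. At p of at most 0.05, 2 to 5 genes were higher in Panc10.05 and 0 to 6 in BxPC3, with 5 and 6 without the first BxPC3 P2-α8 list, which sets the common length.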
